A study of Mus musculus with 6 samples.

Results

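The collagens, laminins and other large proteins of the extracellular matrix were compared between *Zic2* iso/iso and wildtype mouse embryos. The members were every array probe whose annotated gene was a collagen chain (*Col2a1* left out), a laminin chain, fibronectin (*Fn1*), a nidogen (*Nid1*, *Nid2*), perlecan (*Hspg2*), agrin (*Agrn*), *Sparc*, versican (*Vcan*), a fibrillin or tenascin C (*Tnc*). They came to 133 of 45281 probes, for 57 of 19057 genes. No probe carried the symbol of *Col6a3*, *Col12a1*, *Col20a1*, *Lama3*, *Fbn1* or *Fbn2* in the table used here, so these genes were not analysed.

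Each of the 6 samples was RNA from a pool of 8 whole embryos of matched stage, taken between E8.0 and E8.5 and hybridised to 1 Illumina Mouse WG6 v2 array. There were 3 pools of *Zic2* iso/iso embryos and 3 of wildtype embryos, and both came from crosses of heterozygous parents kept on the C3H/HeH background. The *iso* allele arose in a chemical (ENU) mutagenesis screen and puts a premature stop codon in the fifth zinc finger of ZIC2, a transcription factor needed for the midline, the forebrain and left-right patterning. It is a point mutation carried by every cell, and it was isolated on mutagenised C57Bl6/J chromosomes that were then crossed into C3H/HeH. The methods report the use of both sexes, and the labels do not give the sexes in each pool. The comparison asks whether loss of normal ZIC2 alters the level of matrix transcripts at the stage when the node and midline set up left-right asymmetry.

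A basement membrane is the thin matrix sheet under an epithelium. Laminins, each an alpha, a beta and a gamma chain, assemble first at the cell surface, and a network of collagen IV then joins them, held to the laminins by nidogen and perlecan. Outside the sheet lies interstitial matrix, made of fibrillar collagens, the fibril-associated collagens that coat them, and glycoproteins such as fibronectin. In the early mouse embryo basement membranes underlie the ectoderm, the neural tube and the endoderm, surround the somites, and form the thick Reichert's membrane that parietal endoderm lays down around the conceptus.

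No member passed the test between genotypes. Among the members above background, agrin, *Sparc* and collagen XVIII (*Col18a1*) were higher in every *Zic2* iso/iso pool than in any wildtype pool, by 0.21 to 0.26 on the log2 scale, and the fibril-associated collagens *Col9a2* and *Col22a1* were lower in every one, by 0.23 and 0.16. Such separation is about as common over the whole array, at 14.3% of members and 12.0% of all genes above background. The collagen IV chains *Col4a1* and *Col4a2*, the laminin chain *Lama1* and both nidogens had overlapping pools. In the limma fit, with Benjamini-Hochberg adjustment across the 45281 probes of the array, 0 of 133 member probes had an adjusted p under 0.05, and their smallest adjusted p was 0.614, where 20 probes of the whole array (0.0442%) passed. At an unadjusted p under 0.05 in the same fit, 13 of 133 member probes stood beside 2727 of all 45281 probes (6.02%).

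Promoter sequences are shown for 2 pairs of members. *Col4a1* and *Col4a2* were taken because these collagen IV genes lie head to head and share a promoter region. Their differences had opposite signs, but both had overlapping pools and neither passed the test. *Agrn* and *Sparc* were taken because both had separate pools and their promoters differ widely in composition. Each sequence is the RefSeq window of GRCm38.p6 (mouse) from 250 bases before to 50 after a transcript's start. It is printed 5′ to 3′ on the gene's strand. Capitals mark the GC box letters GGGCGG and the CCAAT box letters CCAAT, read on both strands, with overlapping matches counted.
Col4a1 (chr8:11312777-11313076, minus strand): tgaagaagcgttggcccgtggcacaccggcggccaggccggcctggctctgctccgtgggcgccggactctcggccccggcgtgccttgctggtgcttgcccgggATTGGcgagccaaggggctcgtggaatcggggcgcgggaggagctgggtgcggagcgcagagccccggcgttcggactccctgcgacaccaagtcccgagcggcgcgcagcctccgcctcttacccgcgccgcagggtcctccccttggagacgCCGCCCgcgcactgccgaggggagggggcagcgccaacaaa
Col4a2 (chr8:11312555-11312854, plus strand): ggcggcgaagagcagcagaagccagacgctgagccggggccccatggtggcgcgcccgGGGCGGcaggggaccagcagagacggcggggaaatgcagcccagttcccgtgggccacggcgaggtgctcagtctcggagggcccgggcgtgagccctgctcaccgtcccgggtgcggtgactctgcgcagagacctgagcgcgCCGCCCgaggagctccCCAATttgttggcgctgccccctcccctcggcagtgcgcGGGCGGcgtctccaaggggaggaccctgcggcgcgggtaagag
Agrn (chr4:156197439-156197738, minus strand): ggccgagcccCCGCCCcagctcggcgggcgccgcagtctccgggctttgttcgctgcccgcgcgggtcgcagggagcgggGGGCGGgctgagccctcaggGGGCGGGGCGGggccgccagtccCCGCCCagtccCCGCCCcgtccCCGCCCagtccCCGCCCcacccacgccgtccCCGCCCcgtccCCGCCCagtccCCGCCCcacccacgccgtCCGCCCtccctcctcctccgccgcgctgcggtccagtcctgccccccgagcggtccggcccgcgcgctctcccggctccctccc
Sparc (chr11:55420031-55420330, minus strand): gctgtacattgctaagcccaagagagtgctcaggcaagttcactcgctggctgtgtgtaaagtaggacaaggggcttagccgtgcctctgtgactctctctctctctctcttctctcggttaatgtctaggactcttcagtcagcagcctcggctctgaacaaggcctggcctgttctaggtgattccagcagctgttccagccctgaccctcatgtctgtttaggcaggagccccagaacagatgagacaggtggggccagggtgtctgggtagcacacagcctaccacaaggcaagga
The *Col4a1* and *Col4a2* windows overlap by 78 bases (chr8:11312777-11312854), with the starts 21 bases apart on opposite strands, and are 74% and 73.7% G and C, where the median of all windows is 52.7%. The *Agrn* window holds 12 GC boxes in 83.3% G and C, whereas a second annotated *Agrn* start (window chr4:156186210-156186509) has 2. The *Sparc* window holds 0 GC boxes and is 55.3% G and C.

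Of the 57 member genes, 44 had such windows (50 in all) and the others had none in the table. A GC box stood in 66% of member windows and in 35.7% of all 32851 windows of this length, and a CCAAT box in 32% against 37.4%. The TATA letters TATAAA were in 14% of member windows and 13.6% of all. The letters CAGCAGG were taken as a ZIC core, though the putative ZIC2 sites that the authors report in a *Nodal* enhancer do not hold them. They were in 12% of member windows against 10.5%, and the SOX core ACAATG in 2% against 12.6%. These are matches of letters, and binding was not measured here.

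Levels are log2 intensities after quantile normalisation, and differences are *Zic2* iso/iso minus wildtype on that scale. The brightest of a gene's probes over all 6 pools stands for it. A level of 7.47, the 95th percentile of 1608 probes for genes such as odorant receptors that an embryo at this stage should not use, was taken as the background. Above it lay 35 of the 57 member genes. The deposited intensities still hold the array background (medians 154 to 187, lowest values 104 to 122), so that differences of dim genes are understated. Because probes differ in brightness for the same amount of RNA, levels are compared between pools and not between genes. In pooled whole embryos, fewer cells of a type and less RNA per cell cannot be told apart.

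The labels were checked on *Zic2* itself and on markers. The brighter *Zic2* probe read 8.27, 8.06 and 8.00 in the wildtype pools and 7.64, 7.57 and 8.01 in the *Zic2* iso/iso pools (difference −0.37, adjusted p = 0.614), and the dimmer one differed by 0.12. A stop codon need not alter the transcript level, so this neither bears out nor contradicts the genotypes. Markers of the main embryonic tissues were above background, with 5 of 5 measured notochord and node genes, 5 of 5 heart genes, 4 of 7 somite genes, 5 of 6 neural crest genes and 3 of 6 neural plate genes. So were 8 of 9 parietal endoderm genes and 10 of 10 visceral endoderm and yolk sac genes, while only 2 of 6 trophoblast and decidua genes were.

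**Figure D1:**
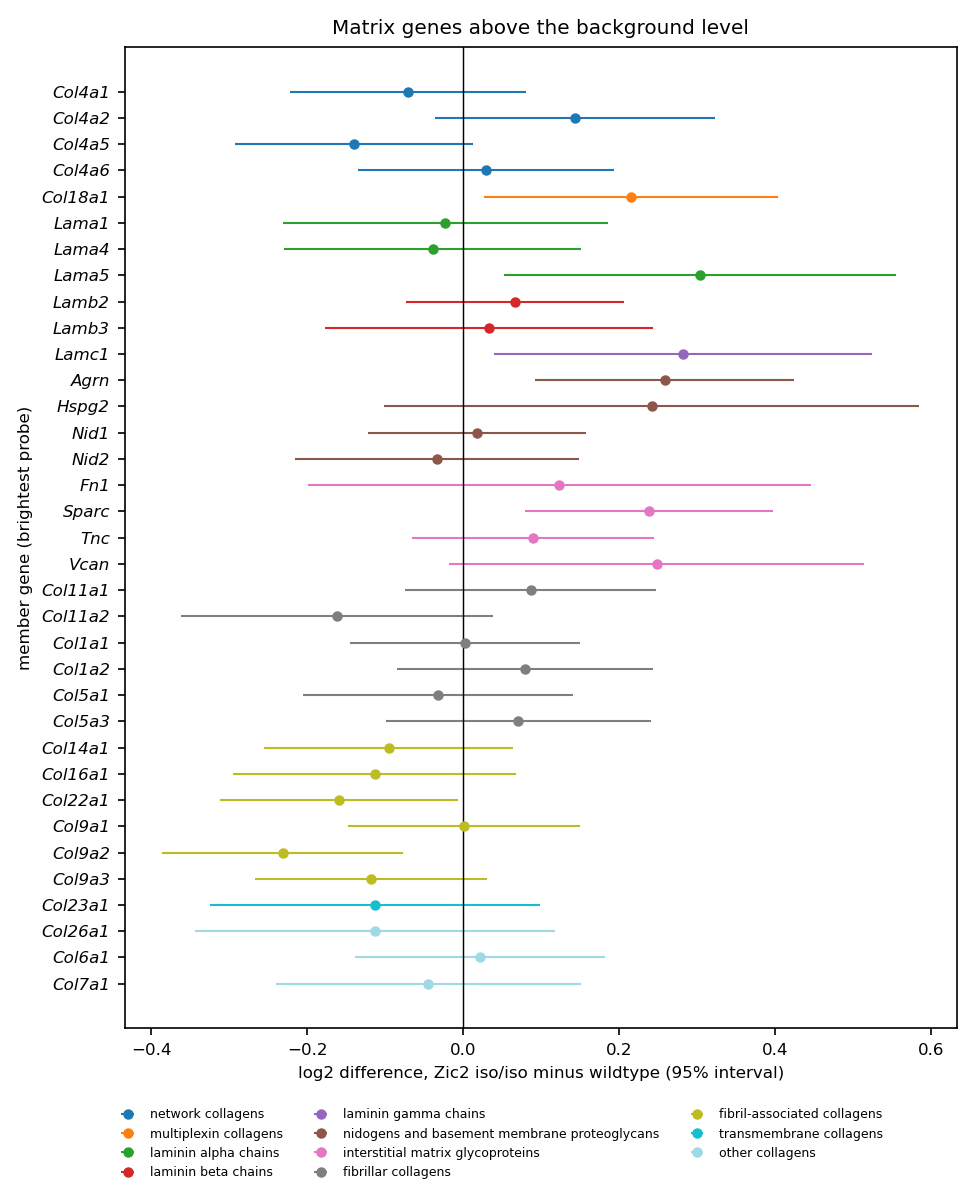
Difference in log2 intensity, *Zic2* iso/iso minus wildtype, for the 35 member genes above background, grouped by role. Points are the fitted difference of 3 against 3 pools and bars its 95% interval, unadjusted. Points run from −0.23 (*Col9a2*) to 0.30 (*Lama5*), and 7 intervals leave out 0.

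The 35 genes were spread on both sides of 0, with 20 differences above it and 15 below. Their median was 0.02 beside −0.01 over all 10439 genes above background. The 95% intervals of the 35 lay within −0.39 to 0.58, and the median distance from a difference to the end of its interval was 0.17. An unadjusted p under 0.05 was reached by 7 of the 35 (20%), 5 of them higher and 2 lower, beside 1157 of all genes above background (11.1%). The pools did not overlap for 5 of the 35 (14.3%), close to the 1255 genes (12.0%) of the background. Of these 5, 3 were higher in *Zic2* iso/iso, where 4.88% of all genes above background were, and 2 were lower, where 7.15% were.

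The collagen IV network was measured through 4 chains above background, and none of them passed the test. *Col4a1*, which with *Col4a2* forms the network of nearly every basement membrane, read 12.35, 12.17 and 12.31 in the wildtype pools and 12.16, 12.25 and 12.19 in the *Zic2* iso/iso pools. These overlapped, and the difference was −0.07 (SE 0.07, adjusted p = 0.957). *Col4a2* read 10.72, 10.53 and 10.62 in wildtype and 10.83, 10.87 and 10.60 in *Zic2* iso/iso, again overlapping, with a difference of 0.14 (SE 0.08, adjusted p = 0.899). Taken within each pool, the *Col4a1* probe stood above the *Col4a2* probe by 1.62, 1.63 and 1.69 in wildtype and by 1.33, 1.38 and 1.59 in *Zic2* iso/iso. The absolute size of that gap depends on the probes, but it was smaller in all 3 *Zic2* iso/iso pools, by 0.21 on average, without overlap. This pair was 1 of 7 pairs compared, without a test. Besides it, only the gap of *Lama1* and *Lamc1*, given below, was without overlap. How often the gap of 2 genes separates the genotypes over the whole array was not determined, so no result is drawn from it.

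The X-linked chains *Col4a5* and *Col4a6*, which lie head to head as well and serve more restricted membranes, differed by −0.14 (adjusted p = 0.872) and 0.03 (adjusted p = 0.987). *Col4a5* read 8.48 to 8.51 in the 3 wildtype pools and 8.28, 8.48 and 8.30 in *Zic2* iso/iso. Its second probe differed by −0.04. *Xist*, the RNA of the inactive X chromosome, read 8.79, 9.11 and 9.23 in wildtype and 7.99, 8.43 and 9.12 in *Zic2* iso/iso. Its difference of −0.53 did not pass (adjusted p = 0.779), and the sex makeup of the pools and its part in the *Col4a5* value were not tested. *Col4a3* and *Col4a4*, the kidney and lens chains, were not above background, nor were the network collagens *Col8a1*, *Col8a2* and *Col10a1*, the last a product of cartilage that forms much later.

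Collagen XVIII, a basement membrane collagen that carries heparan sulfate and holds the endostatin fragment, had separate pools. *Col18a1* read 13.09, 13.00 and 12.98 in wildtype and 13.45, 13.12 and 13.15 in *Zic2* iso/iso (13.02 ± 0.06 and 13.24 ± 0.18, mean ± SD, n = 3 each). The difference was 0.21 (SE 0.09, 95% interval 0.03 to 0.40, adjusted p = 0.788). The first *Zic2* iso/iso pool stood well above the others, and without it the difference was 0.11. The dimmer probes of the gene differed by 0.10 and 0.09, with overlapping pools. Its relative *Col15a1* was not above background in any pool, at 7.28, 7.38 and 7.37 in wildtype and 7.18, 7.03 and 7.23 in *Zic2* iso/iso, so no fold is given.

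Among the laminins, *Lama5* and *Lamc1* had the largest differences of all members above background and *Lama1* had nearly none. *Lama5*, the alpha chain that becomes the main one of embryonic epithelia, read 9.19, 8.89 and 8.77 in wildtype and 9.17, 9.10 and 9.49 in *Zic2* iso/iso. The first wildtype pool lay within the *Zic2* iso/iso range, and the difference was 0.30 (SE 0.12, 95% interval 0.05 to 0.56, adjusted p = 0.760), or 0.19 without the third *Zic2* iso/iso pool. *Lamc1*, the gamma chain shared by most laminins and needed for any basement membrane in the early embryo, read 10.80, 10.72 and 10.30 in wildtype and 10.90, 10.78 and 10.98 in *Zic2* iso/iso. The difference was 0.28 (SE 0.11, 95% interval 0.04 to 0.52, adjusted p = 0.779), and its second probe gave 0.26. The third wildtype pool was low for *Lamc1*, and without it the difference was 0.13.

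*Lama1*, the alpha chain of the first embryonic laminin, read 10.77, 10.56 and 10.39 in wildtype and 10.40, 10.61 and 10.64 in *Zic2* iso/iso. The wildtype range enclosed that of *Zic2* iso/iso, and the difference was −0.02 (SE 0.10, 95% interval −0.23 to 0.19, adjusted p = 0.993). Within a pool, the gap between the *Lama1* and *Lamc1* probes was 0.30 lower in *Zic2* iso/iso on average, at −0.03, −0.15 and 0.10 in wildtype and −0.50, −0.16 and −0.34 in *Zic2* iso/iso, without overlap. The nearest pools of the genotypes all but touched. This pair came from the same set of pairs, compared without a test. Their usual partner *Lamb1* was read by 1 probe that was not above background in any pool, at 7.25, 7.22 and 7.21 in wildtype and 7.35, 7.30 and 7.26 in *Zic2* iso/iso, and so gives no level. *Lamb2*, the beta chain of nerve, muscle and kidney membranes, differed by 0.07, *Lamb3*, of skin, by 0.03, and *Lama4*, of vessels and muscle, by −0.04. *Lama2*, the muscle alpha chain, and *Lamc3* were not above background.

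**Figure D2:**
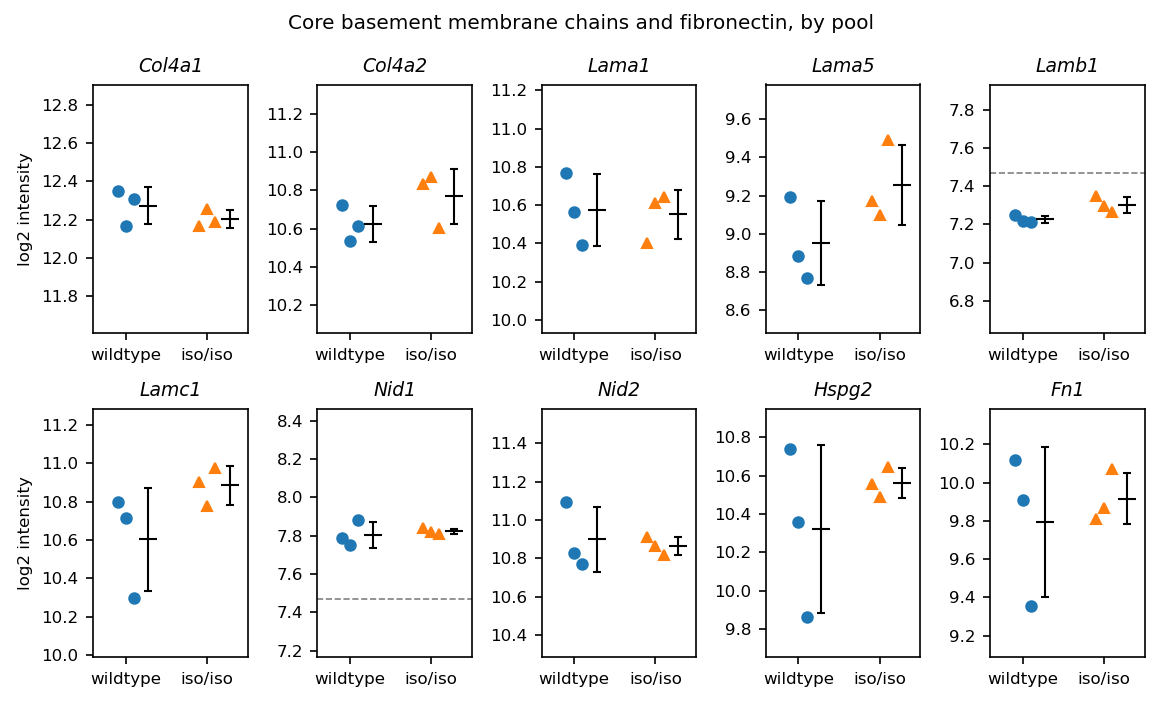
Log2 intensity of the brightest probe in each pool for 10 genes of the core basement membrane and fibronectin, with a dashed line at the background level of 7.47 where it falls in the panel. Circles are wildtype pools 1 to 3 and triangles *Zic2* iso/iso pools 1 to 3, in that order, beside the mean ± SD, and every panel covers the same span on its axis. Wildtype pool 3 is low for *Lamc1*, *Hspg2* and *Fn1*, and *Lamb1* lies wholly under the background.

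The heparan sulfate proteoglycans and the nidogens link the laminin and collagen IV networks. *Agrn*, whose product binds laminins and dystroglycan, read 13.26, 13.09 and 13.00 in wildtype (13.12 ± 0.13) and 13.33, 13.43 and 13.37 in *Zic2* iso/iso (13.37 ± 0.05, SD, n = 3 each). Every *Zic2* iso/iso pool was above every wildtype pool. The difference of 0.26 (SE 0.08, 95% interval 0.09 to 0.42) is a ratio of 1.20 on the measured scale, and its adjusted p of 0.614 was the smallest of any member. The probe was not placed on the transcripts, so its signal is not tied to either of the annotated starts described above.

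*Hspg2*, the gene of perlecan, read 10.74, 10.36 and 9.86 in wildtype and 10.55, 10.49 and 10.65 in *Zic2* iso/iso. The wildtype pools alone spanned more than the difference of 0.24 (SE 0.16, adjusted p = 0.918), and without wildtype pool 3, the lowest, it was 0.01. A second probe differed by 0.22. *Nid1* read 7.79, 7.75 and 7.88 in wildtype and 7.84, 7.82 and 7.81 in *Zic2* iso/iso, a difference of 0.02 (SE 0.06, 95% interval −0.12 to 0.16, adjusted p = 0.992). *Nid2* read 11.09, 10.83 and 10.77 in wildtype and 10.91, 10.87 and 10.82 in *Zic2* iso/iso, a difference of −0.03 (SE 0.08, 95% interval −0.22 to 0.15, adjusted p = 0.987). A p above the threshold does not show that the genotypes were equal, and the *Nid1* probe is dim, so any difference it had would be understated.

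The source of Reichert's membrane was compared beside these genes, since parietal endoderm makes much collagen IV and laminin. Of its 9 markers 8 were above background, 4 with differences above 0 and 4 below, and none had an unadjusted p under 0.05. Their summed level ran from 14.27 to 14.37 in wildtype and from 14.28 to 14.38 in *Zic2* iso/iso. The sum is set mainly by its brighter probes, and its part in the *Agrn*, *Col18a1* and *Lamc1* values was not tested. Visceral endoderm and yolk sac genes, which mark another tissue rich in matrix transcripts, summed to 14.91 to 15.36 in wildtype and 15.05 to 15.64 in *Zic2* iso/iso, with 8 of 10 differences above 0. The part of the yolk sac in the matrix values was not tested.

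The interstitial glycoproteins and *Sparc*, a secreted protein that binds collagen IV and calcium, all had differences above 0. *Sparc* read 11.34, 11.34 and 11.42 in wildtype (11.37 ± 0.04) and 11.70, 11.64 and 11.47 in *Zic2* iso/iso (11.60 ± 0.12, SD, n = 3 each). The pools were separate, with a difference of 0.24 (SE 0.07, 95% interval 0.08 to 0.40, adjusted p = 0.651). A second *Sparc* probe read 10.70, 10.95 and 10.90 in wildtype and 11.01, 11.28 and 11.02 in *Zic2* iso/iso, also separate, by 0.25, and the dimmest, at the background, differed by less than 0.01. *Sparc* was the one member with separate pools on more than 1 probe above background. *Agrn* and *Col9a2* were read by 1 probe each and *Col22a1* by 1 above background, so they give no second reading.

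*Fn1*, whose product is the main early interstitial matrix for migrating mesoderm and the heart, read 10.12, 9.91 and 9.36 in wildtype and 9.81, 9.87 and 10.07 in *Zic2* iso/iso. These overlapped throughout, with a difference of 0.12 (SE 0.15, adjusted p = 0.967) that was −0.09 without the third wildtype pool. *Vcan*, a hyaluronan-binding proteoglycan of the heart and of neural crest paths, differed by 0.25 (SE 0.12, adjusted p = 0.859), but its other probes above background gave −0.02 and 0.15. *Tnc*, a glycoprotein of migrating crest and mesenchyme, was near background and differed by 0.09 (adjusted p = 0.945).

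**Figure D3:**
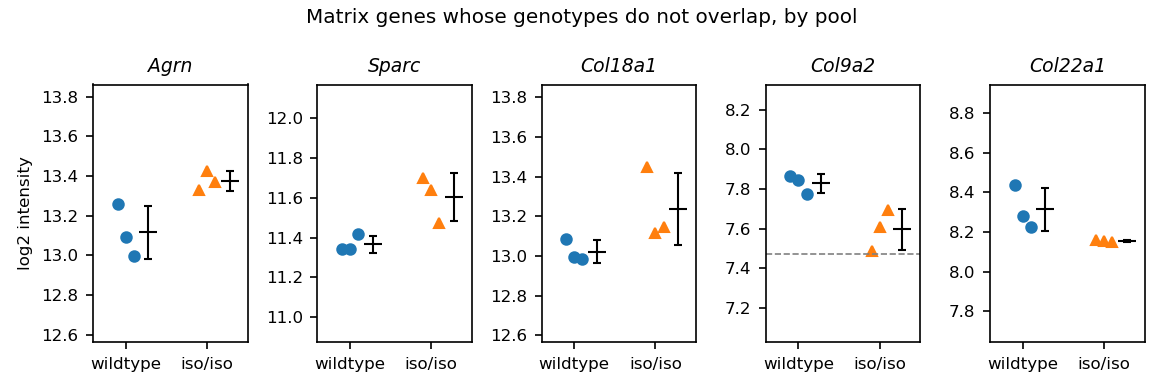
Log2 intensity in each pool for the 5 member genes above background whose genotypes do not overlap, with circles for wildtype pools 1 to 3 and triangles for *Zic2* iso/iso pools 1 to 3, in that order, beside the mean ± SD. *Agrn*, *Sparc* and *Col18a1* are higher in *Zic2* iso/iso and *Col9a2* and *Col22a1* lower, each with a narrow gap between the nearest pools, and the dashed line marks the background.

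Fibrillar collagens, the rope-forming collagens of connective tissue, were mostly dim at this stage, and none of the 6 above background passed the test. *Col5a1*, which starts collagen fibrils, differed by −0.03 (95% interval −0.21 to 0.14), *Col1a1* by less than 0.01 and *Col1a2* by 0.08. *Col11a2*, a cartilage chain, read 7.54, 7.40 and 7.78 in wildtype and 7.31, 7.44 and 7.49 in *Zic2* iso/iso, with a difference of −0.16 (SE 0.09, adjusted p = 0.898). Those pools overlapped and the *Zic2* iso/iso mean of 7.41 was itself below background. With *Zic2* iso/iso pools below background raised to that level, the ratio was 1.07. The 95% interval of the measured difference was −0.36 to 0.04. The difference was −0.06 without wildtype pool 3 and 0.04 with the gene's probes averaged, and its second probe, below background, gave 0.24. *Col11a1* and *Col5a3* differed by 0.09 and 0.07. *Col1a2* and *Col11a1* had a wildtype mean below background, and the same step in wildtype gave ratios of 1.04 and 1.01. The 95% intervals of their measured differences were −0.09 to 0.24 and −0.07 to 0.25. *Col3a1*, *Col5a2*, *Col24a1* and *Col27a1* were not above background.

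None of the 6 fibril-associated collagens above background passed the adjusted test. Their differences were below 0 in 5, one of them *Col14a1*, whose mean is above background in wildtype alone, and above 0 in 1 (16.7%, beside 47.5% of all genes above background). Their median was −0.12, and 2 had separate pools, where 7.15% of all genes above background were separate and lower. The contrast with the glycoproteins was not tested. *Col9a2*, a chain of collagen IX that coats fibrils of cartilage and the notochord sheath, read 7.87, 7.85 and 7.77 in wildtype (7.83 ± 0.05) and 7.49, 7.61 and 7.69 in *Zic2* iso/iso (7.60 ± 0.10, SD, n = 3 each). The difference was −0.23 (SE 0.07, 95% interval −0.39 to −0.08, adjusted p = 0.651), and it was −0.35 (adjusted p = 0.748) where the background was first subtracted by normexp. *Col9a3*, its partner in the same trimer, differed by −0.12 with overlapping pools (adjusted p = 0.900), and *Col9a1* differed by less than 0.01.

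*Col22a1*, known from tissue junctions such as that of muscle and tendon, read 8.44, 8.28 and 8.23 in wildtype and 8.16, 8.15 and 8.15 in *Zic2* iso/iso. The groups did not overlap, and the difference was −0.16 (SE 0.07, 95% interval −0.31 to −0.01, adjusted p = 0.820). It was −0.10 without the first wildtype pool, −0.07 without normalisation between arrays and −0.21 after normexp. *Col16a1* and *Col14a1* differed by −0.11 and −0.10. *Col14a1* read 7.64, 7.46 and 7.46 in wildtype and 7.46, 7.33 and 7.47 in *Zic2* iso/iso, so only its first wildtype pool stood clear of background. With *Zic2* iso/iso pools below background raised to that level, its ratio was 1.03. The 95% interval of its measured difference was −0.26 to 0.06. *Col19a1* was not above background.

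Markers of tissues known to make cartilage-type collagens were read beside these genes. Notochord and node genes summed to 10.75 to 10.89 in wildtype and 10.34 to 10.43 in *Zic2* iso/iso, with 4 of 5 differences below 0. *Shh* (−0.86, adjusted p = 0.0075) and *Chrd* (−0.52, adjusted p = 0.011) passed the test. These have the brightest probes of the list and weigh most in the sum. *Foxa2* (−0.11), *Foxj1* (−0.02) and *Noto* (less than 0.01) had overlapping pools, so the list did not fall as a whole. Somite and sclerotome genes summed to 11.72 to 11.99 in wildtype and 11.41 to 11.69 in *Zic2* iso/iso, with 3 of 4 above background below 0 and none passing. The 5 neural crest genes above background were split, 3 below 0 and 2 above, with *Snai2* at 0.32 and separate pools. The measured crest list summed to 12.28 to 12.42 in wildtype and 11.96 to 12.03 in *Zic2* iso/iso. *Sox9*, a regulator of cartilage collagen genes as well as a crest gene, passed the test (−0.69, adjusted p = 0.0075). Its probe was the brightest of that list and weighs most in the sum, which is thus not a reading of crest tissue as a whole. *Ets1* (−0.36) and *Sox10* (−0.66) were lower without passing, and *Tfap2a* differed by 0.02. The part of these tissues in the collagen IX values was not tested.

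The remaining collagens gave no separate pools above background. *Col26a1*, a little-studied secreted collagen, differed by −0.11 and *Col23a1*, a transmembrane collagen, by −0.11, and in both the second *Zic2* iso/iso pool was the highest of all 6 and the first the lowest. *Col7a1*, of the anchoring fibrils of skin, differed by −0.04 and *Col6a1*, of the beaded filaments around cells, by 0.02. The transmembrane collagens *Col13a1*, *Col17a1* and *Col25a1*, the collagen VI chains *Col6a2*, *Col6a4*, *Col6a5* and *Col6a6*, and *Col28a1* were not above background.

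**Figure D4:**
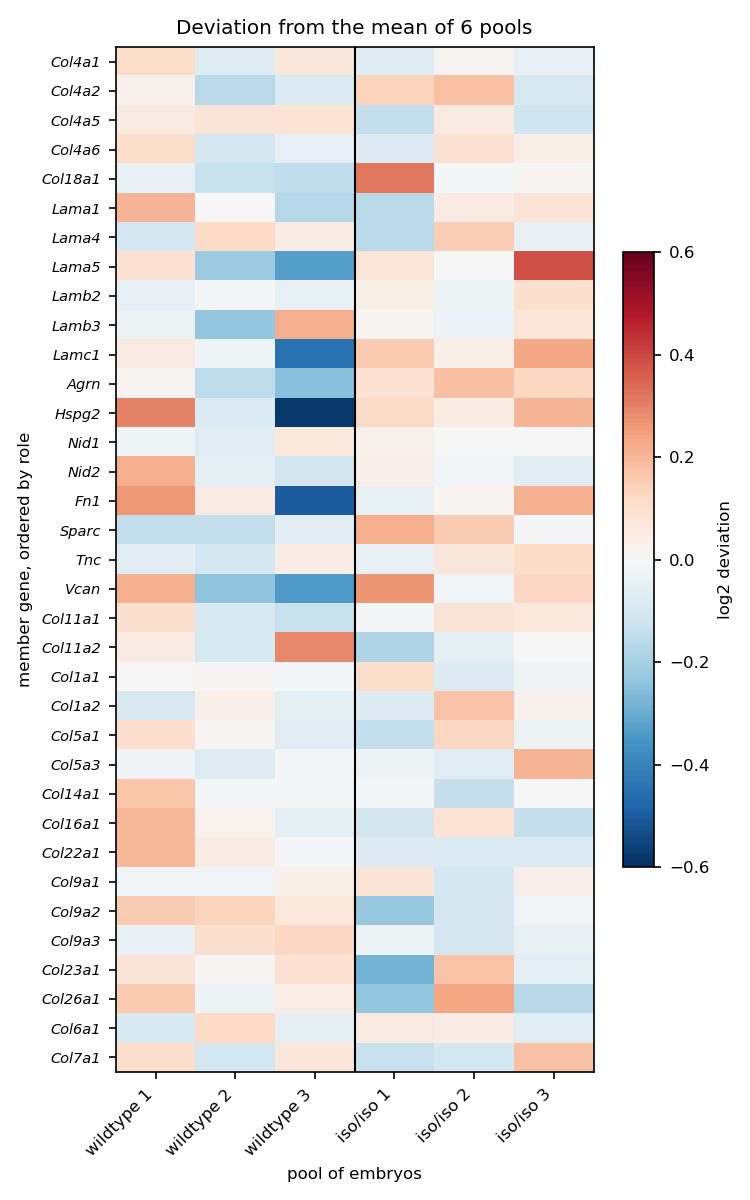
Deviation of each pool from the mean of all 6 pools, in log2 intensity, for the 35 member genes above background in order of role. Red is above and blue below the gene's mean, with wildtype pools left of the line and *Zic2* iso/iso pools right of it. The deepest blue cells are those of wildtype pool 3 at *Hspg2*, *Fn1* and *Lamc1*.

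In the laminins and proteoglycans the wildtype pools spanned more than the genotypes differed on average. Wildtype pool 3 was the lowest of all 6 for 10 of the 35 genes and wildtype pool 1 the highest for 11. Over the 10 laminin, nidogen and proteoglycan genes, the mean deviation was 0.07, −0.07 and −0.16 in the wildtype pools and 0.02, 0.04 and 0.11 in the *Zic2* iso/iso pools. Wildtype pool 1 thus lay among the *Zic2* iso/iso pools. The labels do not give litters or exact stages for the pools, and what sets these apart was not tested.

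Proteins that fold, cut or bind the members were taken from 5 further lists of 103 genes, of which 96 were measured and 63 were above background. None of them passed the adjusted test. At an unadjusted p under 0.05, 3 were higher and 6 lower (14.3% of 63, beside the 11.1% given above), and 13 had separate pools (20.6%, beside 12.0%). Their median difference was 0.01.

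*Mmp14*, a membrane-bound protease that cuts collagens and activates other matrix proteases, had the largest difference of all of them. It read 11.64, 11.50 and 11.45 in wildtype and 11.14, 11.10 and 11.01 in *Zic2* iso/iso. The pools were far apart, with a difference of −0.45 (SE 0.07, 95% interval −0.61 to −0.29, adjusted p = 0.066), which missed the threshold of 0.05. Its second probe, below background, differed by −0.13. *Timp3*, a matrix-bound inhibitor of such proteases, differed by −0.31 without overlap, whereas *Mmp2*, which *Mmp14* activates, differed by 0.04 with overlapping pools. The highest value on the list of proteases and inhibitors was that of *Mmp11* (0.08).

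Receptors for laminin and collagen stood near 0, with *Itgb1*, the beta chain of most matrix integrins, at 0.08, *Itga6*, a laminin receptor chain, at 0.02 and *Dag1*, the dystroglycan that binds agrin, perlecan and laminin, at 0.03. The ends of that list were *Itga9* (−0.24, overlapping) and *Itgb5* (0.19, separate pools). Enzymes and chaperones of collagen folding ran from *Bmp1* (−0.22, separate), which trims procollagen, to *Pxdn* (0.12, overlapping), which crosslinks collagen IV, with *Serpinh1*, the collagen chaperone, at 0.02. Other basement membrane proteins ran from *Fbln2* (−0.24) to *Fbln1* (0.15), both with separate pools. Elastic fibre and other matrix genes ran from *Mfap2* (−0.22), of microfibrils, to *Ccn2* (0.23), a secreted matricellular factor, again both separate.

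**Figure D5:**
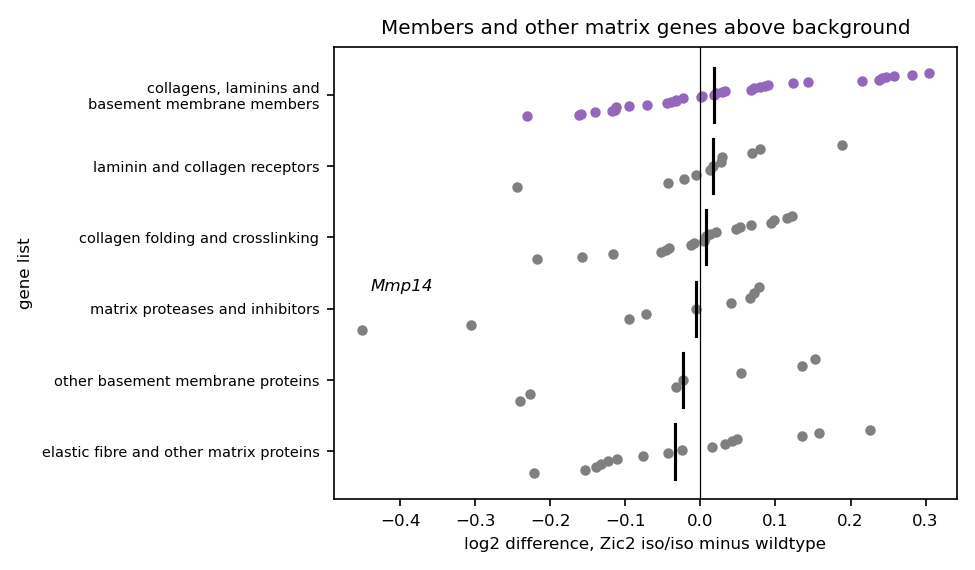
Difference in log2 intensity, *Zic2* iso/iso minus wildtype, for member genes above background (top line) and for 5 lists of other matrix genes above background. Each point is a gene, spread in height for legibility, and the short black bars are medians. *Mmp14* at −0.45 lies farther from 0 than any member, whose points lie between −0.23 and 0.30.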

How the data were processed

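The methods describe arrays of RNA from pools of 8 whole embryos, 3 per genotype, with groups taken here from the sample titles. The authors deposited an intensity for each probe and pool on a linear scale, without background subtraction or normalisation between arrays. The methods name VSN, which these values do not show, so the steps planned for linear values were used. Intensities (floor 1) were put on the log2 scale and quantile normalised, and each probe was fitted in limma 3.58.1 (R 4.3.3; lmFit, eBayes, two-sided, no covariates), with Benjamini-Hochberg adjustment over 45281 probes and a threshold of 0.05.

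Symbols came from the array's annotation: 34885 probes have 1 symbol, 18 several and 10378 none. Members and lists were chosen with earlier results of these data known. Values per pool were given for members with an unadjusted p under 0.05 and separate pools, the 3 largest rises and 3 largest falls, and a fixed core set, and of the other lists the ends and the genes past the threshold were named; other genes were named after their values were seen. An exact permutation test of 3 against 3 pools cannot go below p = 0.1. The labels do not say that pools came from separate litters, so p-values measure the spread between these pools. On simulated data of 45281 probes for this comparison, 50.6% of 77 probes shifted by 0.5, 92.6% of 54 shifted by 1 and 98.6% of 69 shifted by 2 (log2) were recovered, with 1 false among 158 calls. With 158 calls there against 20 in the data, the adjustment was less strict in the simulation, so recovery may be overstated. No shift as small as the differences of members above background, at most 0.30 in size, was simulated. Alternatives were other scaling, normexp correction (offset 50), a filter on dim probes, other variance priors, array weights, the replicate block, probes averaged by gene, other thresholds, and each pool left out. The number of arrays limits the precision of every value.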

Additional observations from a re-analysis of the deposited data

How the results depend on the processing

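No member probe passed the adjusted threshold in any of the 17 settings. Of the 253 values of 17 named members under the alternatives, 11 had the other sign, those of *Lama1*, *Nid1*, *Nid2*, *Col11a2* and *Fn1*. *Lama1* was 0.008 with arrays centred on their medians, 0.0568 without normalisation and −0.1154 to 0.0737 over pools left out, and *Nid2* was 0.0061, 0.0549 and −0.095 to 0.0637 in the same order. *Nid1* was −0.0015 with probes averaged by gene and −0.0097 to 0.0558 over pools left out, *Col11a2* was 0.037 with probes averaged, and *Fn1* ran from −0.0949 to 0.2856 over pools left out.

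Across the array, the 20 probes called became 4 without normalisation, 11 with arrays centred on their medians, 13 with probes averaged by gene, 31 with an intensity trend, 34 at a threshold of 0.10, and 14 to 29 over pools left out. At 0.10, 1 other matrix gene (*Mmp14*) and 0 members were called. Without normalisation, which moved the median of all genes above background from −0.01 to 0.07, the members' median was 0.0914 (−0.0058 to 0.0314 over pools left out) and 2 members had separate pools instead of 5. With 1 pool fewer, 7 to 12 members had separate pools, since fewer pools separate more easily.

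Same-numbered pools did not deviate together (r = −0.13, −0.02 and −0.12), so the numbers were not taken as pairs. With the replicate block 17 probes were called, and 0 members. The *Lamb1* and *Col15a1* values are lost with a filter on dim probes, and low signal over background limits the dim collagens.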

Other observations

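Probes of 1 gene give a second reading of the same RNA. Among the 11 member genes with 2 or more probes above background, all probes had the same sign in 8. The exceptions were *Vcan* (0.25, −0.02 and 0.15), *Col26a1* (−0.11 and 0.01) and *Col6a1* (0.02 and −0.08). For *Fn1*, a dim probe differed by 0.25 with an unadjusted limma p of 0.0403 (adjusted p = 0.818), where the brightest differed by 0.12. Below background, a second *Col11a2* probe differed by 0.24, the opposite sign of the −0.16 of the brighter one, and a further *Col26a1* probe had separate pools and differed by 0.16.

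The tissue markers give the setting of the matrix values. Heart genes had the lowest median, −0.53 over 5 genes, from *Actc1* (−0.66), the cardiac actin, to *Nkx2-5* (−0.12), and summed to 13.63 to 13.96 in wildtype and 12.60 to 13.59 in *Zic2* iso/iso. None of them passed the adjusted test (*Actc1*, adjusted p = 0.746). The third *Zic2* iso/iso pool was the lowest of all 6 pools for each of the 5 heart genes. For *Actc1* it read 10.83, where the other *Zic2* iso/iso pools read 11.75 and 12.15. Endothelial genes ran from *Emcn* (−0.39) to *Pecam1* (0.09), somite genes from *Tcf15* (−0.52) to *Uncx* (0.02), and neural crest genes from *Sox9* (−0.69) to *Snai2* (0.32). Notochord and node genes ran from *Shh* (−0.86) to *Noto*, which differed by less than 0.01. Visceral endoderm genes ran from *Trf* (−0.16) to *Apob* (0.50), parietal endoderm genes from *Dab2* (−0.12) to *Krt18* (0.14), trophoblast and decidua genes from *Prl8a2* (−0.47) to *Prl2c2* (0.04), and neural plate genes from *Sox3* (−0.06) to *Sox2* (0.07). Of all these markers, *Shh*, *Chrd* and *Sox9* passed the adjusted test.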
